A study of Mus musculus with 4 samples.

Results

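The genes described here encode enzymes and other proteins of the lysosome interior, lysosomal membrane proteins, the MiT family of transcription factors that control lysosomal genes, and the V-ATPase, the proton pump that acidifies lysosomes. They were taken as a list of 39 gene symbols, and each was found by its Ensembl identifier in the authors' gene table of 53139 loci. All 39 had been covered by the authors' Cuffdiff test, which covered 12648 loci. The study measured polyadenylated RNA in mouse macrophages derived from tumours of the MCA fibrosarcoma line 9609 (parent line, genotype WT per the labels). The macrophages were treated in culture with exosomes, small vesicles that cells release. In 2 samples the exosomes were labelled MEK1-hi, and in 2 samples they were labelled MEK1-low and also carried the word GFP, so MEK1 content and whatever the word GFP stands for cannot be told apart. MEK1 is the kinase that activates the ERK kinases. Untreated macrophages, exosome doses and treatment times were not among the labels used here, and no label states that replicate samples were separate cultures or separate animals.

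Lysosomes break down material that a cell takes in or recycles. Their hydrolases work best at acid pH, which the V-ATPase sets by pumping protons through its membrane sector V0 with energy from ATP, split by its cytosolic sector V1. The MiT factors TFEB, TFE3 and MITF bind short promoter motifs of lysosomal and V-ATPase genes and switch them on when they enter the nucleus, and kinases such as mTORC1 and ERK can hold TFEB in the cytoplasm. In macrophages, which digest dead cells, microbes and lipoproteins, these genes are among the strongly expressed ones.

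None of the 39 genes passed the authors' test at a deposited q-value under 0.05, against 2.44% of all loci tested (0.751% higher and 1.69% lower with MEK1-hi exosomes). The differences were small in all 6 classes of members. The largest was a 1.37-fold higher level of Atp6v0a1 with MEK1-hi exosomes, a log2 ratio of 0.45. The table gives 1 value per group in FPKM, sequenced fragments scaled to transcript length and library size, so levels can be compared between genes, but no spread between samples can be given and no overlap between the groups can be judged. Every test below is the authors' own. At an unadjusted deposited p-value under 0.05, 5 of the 39 members passed, which is 12.8%, beside 8.66% of all loci tested. Of these 5, Gpnmb, Atp6v0a1 and Atp6v0d2 had higher values and Neu1 and Atp6v1e1 lower values with MEK1-hi exosomes. The background in those directions was 3.53% of loci higher and 5.12% lower.

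**Figure D1:**
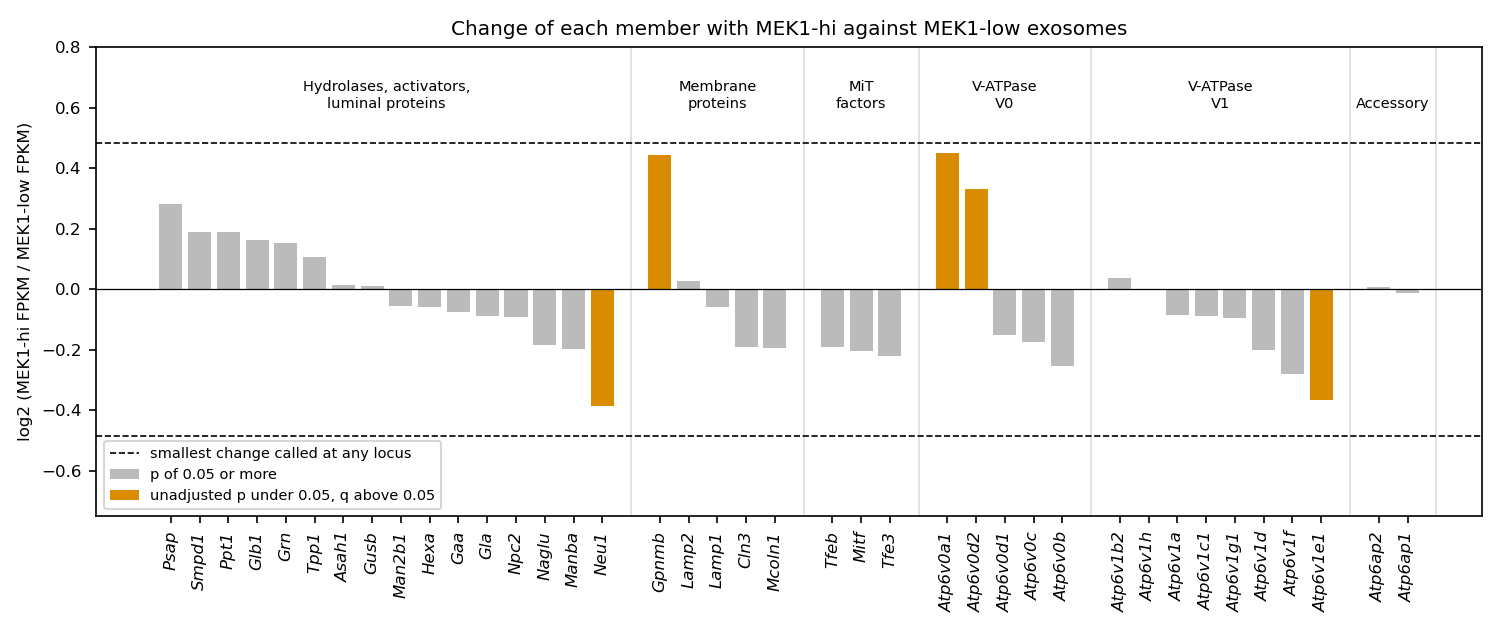
Log2 ratio of the MEK1-hi to the MEK1-low group value for each of the 39 genes (bars, 1 value per gene), by class. All bars lie within the dashed lines at 0.48 above and below 0, the smallest absolute log2 fold change called at any locus; orange bars mark the 5 genes with an unadjusted p under 0.05.

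Among all called loci, the smallest absolute log2 fold change was 0.48, a 1.40-fold difference, and it was the same among the 6851 tested loci whose mean level was at least that of the lowest member, 9.18 FPKM. Of those 6851 loci, 3.01% were called, 0.774% higher and 2.23% lower. An unadjusted p under 0.05 was found at 8.90% of them, 3.07% higher and 5.84% lower. The largest absolute log2 fold change of a member, 0.45, was below the smallest called one, and 31 of the 39 members (79.5%) were within 0.25 of 0 on the log2 scale, beside 80.1% of the 6851 loci. The smallest called change is no detection limit, since a call also depends on the spread of each locus, which the table does not give. The median log2 ratio of the members was -0.08 (-0.07 on the log2(FPKM + 1) scale), beside 0.00 over all loci tested, with values higher for 14 and lower for 25 members. Over all loci tested, values were higher at 6327 and lower at 6279. With both groups set to the same sum of FPKM, the median was -0.03 for the members and 0.04 over all loci, with values higher for 16 and lower for 23 members, and higher at 7306 and lower at 5300 loci. With the same upper quartile, the medians were -0.04 and 0.04, with 16 members higher and 23 lower, and 7201 loci higher and 5405 lower.

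Transcript levels of the members ranged from 8.58 FPKM for Smpd1 to 7263 FPKM for Psap. Psap alone made up 47.4% of the members' summed FPKM with MEK1-hi and 43.2% with MEK1-low exosomes. Together the 39 genes made up 2.45% of the summed FPKM of all loci with MEK1-hi and 2.14% with MEK1-low exosomes. Psap alone accounted for most of that difference: without it the shares were 1.29% with MEK1-hi and 1.22% with MEK1-low exosomes.

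**Figure D2:**
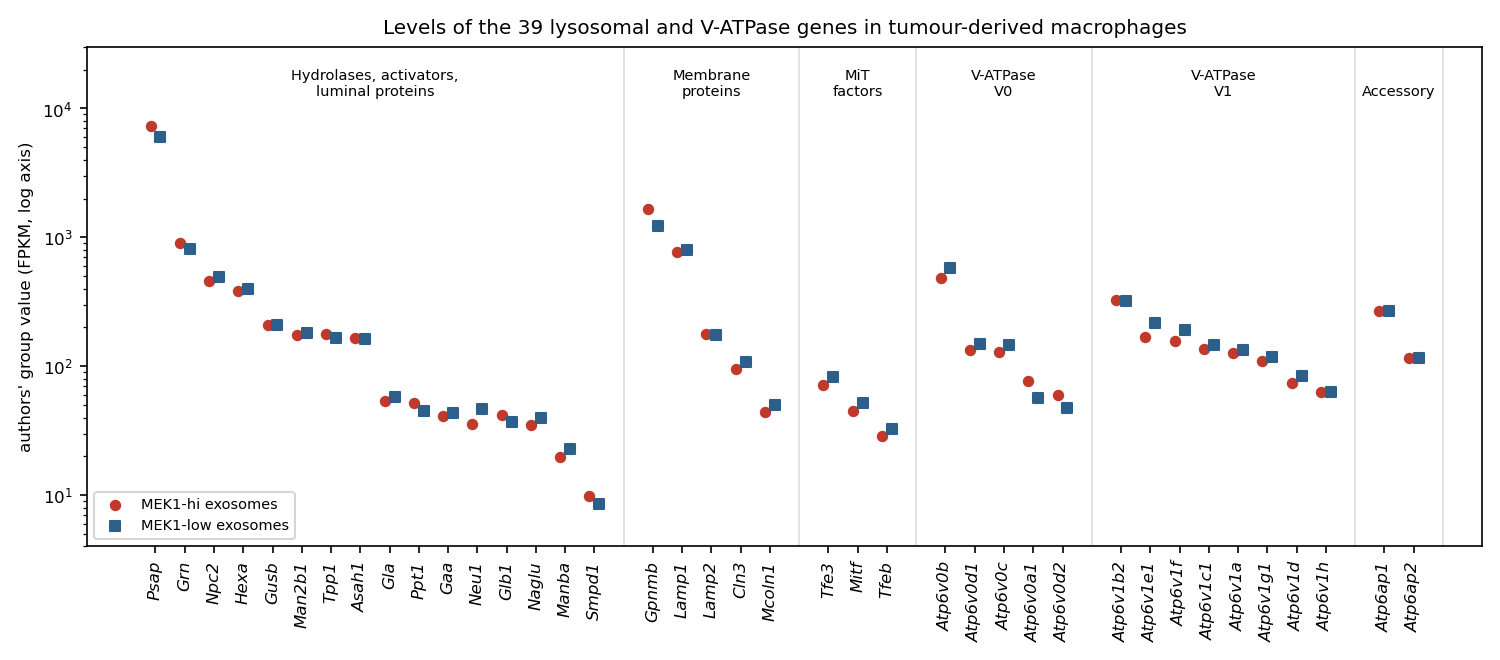
Group values in FPKM (log axis) of the 39 genes with MEK1-hi exosomes (red circles) and MEK1-low exosomes (blue squares), ordered by level within each class. Levels span from 8.58 FPKM for Smpd1 to 7263 FPKM for Psap, and the 2 points of a gene lie close together throughout.

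The hydrolases, their activators and the other luminal proteins (16 genes) showed as many higher as lower values, 8 each, with a median log2 ratio of -0.02, which became 0.02 with both groups set to the same sum or upper quartile of FPKM. Psap (chromosome 10, 60277627 to 60302597, mm10) encodes prosaposin, the precursor of the saposins that present sphingolipids to hydrolases. Its level was 7263 FPKM with MEK1-hi and 5979 FPKM with MEK1-low exosomes, a log2 ratio of 0.28 (Cuffdiff p = 0.349 and q = 0.999 in the authors' deposited table). This placed Psap at rank 6 of all loci with MEK1-hi and rank 8 with MEK1-low exosomes, and it made up 72.5% and 68.8% of the summed FPKM of this class in MEK1-hi and MEK1-low samples. Grn, which encodes progranulin, a protein cut into granulins inside the lysosome, stood at 899.9 FPKM with MEK1-hi and 809.6 FPKM with MEK1-low exosomes (Cuffdiff p = 0.348 and q = 0.999 in the authors' deposited table). Both transcripts had somewhat higher values with MEK1-hi exosomes, and neither passed the test.

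Neu1 (chromosome 17, 34931253 to 34935953) encodes the lysosomal sialidase, which removes sialic acids from glycoproteins and glycolipids. It had the lowest ratio of the members: 35.4 FPKM with MEK1-hi and 46.3 FPKM with MEK1-low exosomes, a log2 ratio of -0.39 (Cuffdiff p = 0.0119 and q = 0.248 in the authors' deposited table). Glb1, the beta-galactosidase that is held in a complex with the sialidase, had 41.7 FPKM with MEK1-hi and 37.3 FPKM with MEK1-low exosomes. Its locus is joined with Tmppe, so reads of these genes cannot be told apart. Ctsa, which encodes the protective protein of the same complex and is not a member, stood at 743 FPKM with MEK1-hi and 800.3 FPKM with MEK1-low exosomes. Of these complex partners, the sialidase transcript alone had a p under 0.05; whether its change differed from that of its partners was not tested.

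A further 4 enzymes of sphingolipid breakdown had log2 ratios from -0.09 for Gla to 0.19 for Smpd1. Hexa, the alpha subunit of beta-hexosaminidase, had 381 FPKM with MEK1-hi and 397 FPKM with MEK1-low exosomes. Asah1, acid ceramidase, had 164 FPKM with MEK1-hi and 163 FPKM with MEK1-low exosomes. Gla, alpha-galactosidase A, had 54.1 FPKM with MEK1-hi and 57.4 FPKM with MEK1-low exosomes. Smpd1, acid sphingomyelinase, was the lowest member in level, at 9.79 FPKM with MEK1-hi and 8.58 FPKM with MEK1-low exosomes. The deposited p-values of these 4 genes lay at 0.266 or above in the authors' deposited table.

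Enzymes that remove other sugars had log2 ratios from -0.20 for Manba to 0.01 for Gusb. Gusb, beta-glucuronidase, had 209 FPKM with MEK1-hi and 208 FPKM with MEK1-low exosomes. Man2b1, an alpha-mannosidase, had 174 FPKM with MEK1-hi and 181 FPKM with MEK1-low exosomes. Manba, the beta-mannosidase, had 19.9 FPKM with MEK1-hi and 22.8 FPKM with MEK1-low exosomes. Both mannosidase transcripts had slightly lower values with MEK1-hi exosomes. Naglu, an enzyme of heparan sulphate breakdown, had 34.9 FPKM with MEK1-hi and 39.7 FPKM with MEK1-low exosomes. Gaa, which degrades glycogen, had 41.1 FPKM with MEK1-hi and 43.3 FPKM with MEK1-low exosomes. The largest absolute log2 fold change among these 5 was that of Manba, -0.20 (Cuffdiff p = 0.190 and q = 0.958 in the authors' deposited table).

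The other luminal proteins act on proteins or carry lipid. Tpp1, a peptidase that trims peptides from the amino end, had 178 FPKM with MEK1-hi and 166 FPKM with MEK1-low exosomes. Ppt1, which removes fatty acyl groups from proteins, had 51.6 FPKM with MEK1-hi and 45.3 FPKM with MEK1-low exosomes. Npc2, which hands cholesterol to the lysosomal membrane, had 459 FPKM with MEK1-hi and 489 FPKM with MEK1-low exosomes. All 3 had q = 0.999 in the authors' deposited table.

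The 5 membrane proteins ranged from the second most abundant member to one of moderate level. Gpnmb (chromosome 6, 49036546 to 49070929) encodes a transmembrane glycoprotein of lysosomes and phagosomes that macrophages produce under lysosomal and lipid load. It stood at 1662 FPKM with MEK1-hi and 1223 FPKM with MEK1-low exosomes, a log2 ratio of 0.44 (Cuffdiff p = 0.0242 and q = 0.382 in the authors' deposited table). Lamp1, an abundant glycoprotein of the lysosomal coat, had 768 FPKM with MEK1-hi and 799 FPKM with MEK1-low exosomes (Cuffdiff q = 0.999 in the authors' deposited table). Its relative Lamp2, which also serves in chaperone-mediated autophagy, had 177 FPKM with MEK1-hi and 173 FPKM with MEK1-low exosomes. The general lysosomal membrane markers Lamp1 and Lamp2 thus had deposited log2 ratios of -0.06 and 0.03, while the Gpnmb value was higher with MEK1-hi exosomes but did not pass the test. Cln3, a multispanning membrane protein, had 94.4 FPKM with MEK1-hi and 107.6 FPKM with MEK1-low exosomes. Mcoln1, the calcium-permeable channel TRPML1 whose calcium release activates TFEB through calcineurin, had 43.8 FPKM with MEK1-hi and 50.1 FPKM with MEK1-low exosomes. The log2 fold changes of Cln3 and Mcoln1 were both -0.19, and the authors' deposited table gave them Cuffdiff p = 0.495 and p = 0.288.

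All 3 MiT factor genes had lower values with MEK1-hi exosomes, by nearly the same ratio, and none passed the test. Tfe3 was the most abundant, at 71.0 FPKM with MEK1-hi and 82.7 FPKM with MEK1-low exosomes, a log2 ratio of -0.22 (Cuffdiff p = 0.388 in the authors' deposited table). Mitf had 44.8 FPKM with MEK1-hi and 51.5 FPKM with MEK1-low exosomes, a log2 ratio of -0.20 (Cuffdiff p = 0.199 in the authors' deposited table). Tfeb had 28.5 FPKM with MEK1-hi and 32.6 FPKM with MEK1-low exosomes, a log2 ratio of -0.19 (Cuffdiff p = 0.230 in the authors' deposited table). Tfec, the fourth gene of the family and not a member, had 10.98 FPKM with MEK1-hi and 13.4 FPKM with MEK1-low exosomes, a log2 ratio of -0.29 (Cuffdiff p = 0.117 in the authors' deposited table). The share of Tfe3 in the summed FPKM of these 4 genes was 45.7% with MEK1-hi and 45.9% with MEK1-low exosomes. Transcript levels do not measure the phosphorylation or the nuclear entry of these factors, through which they are known to be regulated.

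The letters that MiT factors bind were looked up in the promoters of the members, because they are the known link between these factors and the other genes. RefSeq promoters (GRCm38.p6, the sequence of mm10, from 250 bases before to 50 bases after a transcription start) were matched by symbol for 33 of the 39 members. The CLEAR core TCACGTGA, which is its own reverse complement, stood in promoters of 5 members, 15.2%, beside 1.12% of the 27025 genes with a promoter and 2.31% of the 9224 such genes at loci tested. The M-box TCATGTGA, searched on both strands, also stood in 5 members, beside 1.15% of all genes and 0.922% of those at loci tested. The E-box CACGTG, which lies within the CLEAR core, stood in 10 members, 30.3%, beside 8.09% of all genes and 12.1% of those at loci tested. At loci at or above the mean level of the lowest member, 5302 genes had a promoter. Of these, 2.66% held a CLEAR core, 1.09% an M-box and 13.1% an E-box. These motifs are known from promoters of lysosomal genes, so their shares are not read as a result about the members. A match is a description of letters and not a shown binding site. The stretches below hold the matches that lie wholly before a RefSeq start, written 5′ to 3′ along the gene's strand with the motif in capitals. Where a 5′ exon is named, the stretch overlaps an untranslated part of a GENCODE exon. The annotation used did not separate 5′ from 3′ untranslated parts.
Gla, chrX:134601184-134601243, minus strand, upstream of the gene: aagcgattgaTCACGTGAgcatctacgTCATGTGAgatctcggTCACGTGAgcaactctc
Atp6v1a, chr16:44139358-44139417, minus strand, in an intron of a GENCODE transcript: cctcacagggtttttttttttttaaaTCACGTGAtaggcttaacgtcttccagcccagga
Cln3, chr7:126583340-126583369, minus strand, over a 5′ exon of a GENCODE transcript: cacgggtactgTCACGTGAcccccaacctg
Mcoln1, chr8:3500462-3500491, plus strand, over a 5′ exon of a GENCODE transcript: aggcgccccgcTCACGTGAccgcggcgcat
Grn, chr11:102430285-102430314, plus strand, upstream of the gene: tgattctctaaTCACATGAtccctagaaat
Atp6v0c, chr17:24169451-24169480, minus strand, over a 5′ exon of a GENCODE transcript: gggcggggacagaTCATGTGAcgcgagcgc
In the Gla promoter, CLEAR cores begin 228 and 195 bases before the start and the M-box 211 bases before it. Atp6v0d1 holds a CLEAR core across its start, and Ppt1 and Tpp1 hold M-boxes after theirs.

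The members with a CLEAR core all had lower values with MEK1-hi exosomes, with log2 fold changes between -0.19 and -0.08 and a median of -0.15. None of these 5 genes had an unadjusted p under 0.05. Of the 5 with an M-box, 3 had higher and 2 lower values, with a median log2 ratio of 0.11. The 19 members whose promoters held none of the 3 motifs had 7 higher and 12 lower values, with a median of -0.06. Of these 19, 4 were among those with an unadjusted p under 0.05. Among all 39 members, 25 had lower values. The 10 members with an E-box, which include the 5 with a CLEAR core, had 1 higher and 9 lower values, with a median of -0.12. These groups were not tested against each other.

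The V-ATPase subunits and accessory proteins (15 genes) had lower values with MEK1-hi exosomes for 11 genes and higher values for 4, with a median log2 ratio of -0.09. If the groups were set to the same sum or the same upper quartile of FPKM, 9 were lower and 6 higher, since Atp6v1h and Atp6ap1 changed side. The summed FPKM of the 15 genes was 2427 with MEK1-hi and 2629 with MEK1-low exosomes. None was called, beside 2.44% of all loci tested, and 3 had an unadjusted p under 0.05, beside 8.66% of all loci tested.

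In the V0 sector, which forms the proton channel, the subunits went both ways. Atp6v0a1 (chromosome 11, 101009452 to 101063719) encodes an isoform of subunit a, the large membrane subunit whose isoforms help direct the pump to its compartment. It stood at 77.3 FPKM with MEK1-hi and 56.6 FPKM with MEK1-low exosomes, a log2 ratio of 0.45, with the lowest p of all members (Cuffdiff p = 0.00410 and q = 0.119 in the authors' deposited table). Tcirg1, which encodes the a3 isoform of lysosomes and osteoclasts and is not a member, stood at 386 FPKM with MEK1-hi and 417 FPKM with MEK1-low exosomes (Cuffdiff q = 0.999 in the authors' deposited table). Atp6v0a2 stood at 12.6 FPKM in both groups. In the summed FPKM of the 4 genes for subunit a, Atp6v0a1 made up 16.2% with MEK1-hi and 11.6% with MEK1-low exosomes, and Tcirg1 made up 81.1% and 85.7% in the MEK1-hi and MEK1-low groups. These shares have no test.

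Subunit d, which couples the rotor of V0 to V1, has 2 genes, and neither was called. Atp6v0d2 (chromosome 4, 19876841 to 19922605), the isoform known from osteoclasts and macrophages, stood at 59.3 FPKM with MEK1-hi and 47.2 FPKM with MEK1-low exosomes, a log2 ratio of 0.33 (Cuffdiff p = 0.0266 and q = 0.409 in the authors' deposited table). Atp6v0d1, the isoform found in most cells, stood at 133 FPKM with MEK1-hi and 148 FPKM with MEK1-low exosomes, a log2 ratio of -0.15 (Cuffdiff p = 0.305 in the authors' deposited table). Atp6v0d2 made up 30.8% of the FPKM of both genes with MEK1-hi and 24.1% with MEK1-low exosomes, shares that have no test either. The proteolipid subunits of the rotor ring had lower values. Atp6v0b, the most abundant V-ATPase transcript here, stood at 483 FPKM with MEK1-hi and 577 FPKM with MEK1-low exosomes, a log2 ratio of -0.25 (Cuffdiff p = 0.0925 and q = 0.764 in the authors' deposited table). Atp6v0c stood at 129 FPKM with MEK1-hi and 145 FPKM with MEK1-low exosomes (Cuffdiff p = 0.242 in the authors' deposited table).

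In the V1 sector, 7 of the 8 subunit genes had lower values with MEK1-hi exosomes, or 6 of the 8 after either rescaling. Atp6v1e1 (chromosome 6, 120794305 to 120822793), a subunit of the peripheral stalks, stood at 167 FPKM with MEK1-hi and 215 FPKM with MEK1-low exosomes, a log2 ratio of -0.36 (Cuffdiff p = 0.0126 and q = 0.260 in the authors' deposited table). Atp6v1f, of the central stalk, stood at 158 FPKM with MEK1-hi and 192 FPKM with MEK1-low exosomes, a log2 ratio of -0.28 (Cuffdiff p = 0.0619 and q = 0.641 in the authors' deposited table). Atp6v1d, also of the central stalk, stood at 73.6 FPKM with MEK1-hi and 84.5 FPKM with MEK1-low exosomes. These 3 genes gave the lowest ratios of this sector. The genes of the catalytic ring lay closer to equality, but so did Atp6v1g1, a further stalk gene, with a log2 ratio of -0.10. Atp6v1a, which carries the catalytic site, stood at 126 FPKM with MEK1-hi and 134 FPKM with MEK1-low exosomes. Atp6v1b2, its partner in the ring and the most abundant V1 transcript, stood at 327 FPKM with MEK1-hi and 318 FPKM with MEK1-low exosomes (Cuffdiff q = 0.999 in the authors' deposited table).

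The remaining V1 genes encode further stalk and regulatory subunits. Atp6v1c1, whose protein joins the sectors during assembly, stood at 137 FPKM with MEK1-hi and 145 FPKM with MEK1-low exosomes. Atp6v1g1, a peripheral stalk subunit, stood at 109.7 FPKM with MEK1-hi and 117 FPKM with MEK1-low exosomes. Atp6v1h, a regulator of ATP splitting, stood at 63.2 FPKM with MEK1-hi and 63.3 FPKM with MEK1-low exosomes. The accessory proteins were level as well. Atp6ap1, an assembly factor of V0, had 267 FPKM with MEK1-hi and 269 FPKM with MEK1-low exosomes, and its partner Atp6ap2, the prorenin receptor, had 117 FPKM with MEK1-hi and 116 FPKM with MEK1-low exosomes (each with Cuffdiff q = 0.999 in the authors' deposited table).

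Further genes of the lysosome were taken from 5 lists of textbook genes. Of the 34 tested loci of further hydrolases and activators, 2 fell and 0 rose, beside 1.69% of all loci tested called lower and 0.751% called higher. With so few calls, this count is not read as a result about the list. Acp5 (chromosome 9, 22126727 to 22135711), the tartrate-resistant acid phosphatase, fell to 251 FPKM with MEK1-hi, against 466 FPKM with MEK1-low exosomes, a log2 ratio of -0.89 (Cuffdiff q = 0.00349 in the authors' deposited table). Naaa (chromosome 5, 92257659 to 92278170), which breaks down N-acylethanolamines such as palmitoylethanolamide, fell to 8.70 FPKM with MEK1-hi, against 16.5 FPKM with MEK1-low exosomes, a log2 ratio of -0.92 (Cuffdiff q = 0.00349 in the authors' deposited table). With the deposited p unadjusted and under 0.05 there were 0 higher and 4 lower loci, beside 3.53% higher and 5.12% lower over all loci tested. Among the 4 were the joined loci of the RNase genes Rnaset2a and Rnaset2b, near-identical copies whose reads may be shared. Rnaset2a stood at 6.52 FPKM with MEK1-hi and 9.51 FPKM with MEK1-low exosomes, and Rnaset2b at 3.996 FPKM with MEK1-hi and 5.86 FPKM with MEK1-low exosomes. Lipa, the acid lipase that frees cholesterol from lipoproteins, had the highest level of this list, 991 FPKM with MEK1-hi and 1109 FPKM with MEK1-low exosomes, and Pld3 had 408 FPKM with MEK1-hi and 412 FPKM with MEK1-low exosomes (each with Cuffdiff q = 0.999 in the authors' deposited table). Over this list the log2 ratios had a median of -0.05.

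Of 30 further membrane proteins and transporters tested, 0 were called, and the unadjusted p was under 0.05 for 0 higher and 3 lower genes. Over all loci tested, 2.44% were called, and 3.53% were higher and 5.12% lower with such a p. Clcn7, the chloride-proton exchanger of lysosomes, lay just above the threshold, at 51.7 FPKM with MEK1-hi and 73.1 FPKM with MEK1-low exosomes, a log2 ratio of -0.50 (Cuffdiff p = 0.00125 and q = 0.0504 in the authors' deposited table). Ostm1, the subunit that CLC-7 needs for stability, stood at 35.2 FPKM with MEK1-hi and 36.7 FPKM with MEK1-low exosomes. Mcoln2, a relative of Mcoln1, stood at 6.91 FPKM with MEK1-hi and 10.8 FPKM with MEK1-low exosomes (Cuffdiff p = 0.0118 and q = 0.248 in the authors' deposited table). Cd68, a macrophage relative of the LAMP proteins, stood at 1755 FPKM with MEK1-hi and 1728 FPKM with MEK1-low exosomes, and Laptm5 at 409 FPKM with MEK1-hi and 364 FPKM with MEK1-low exosomes. The median of the list was -0.09.

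**Figure D3:**
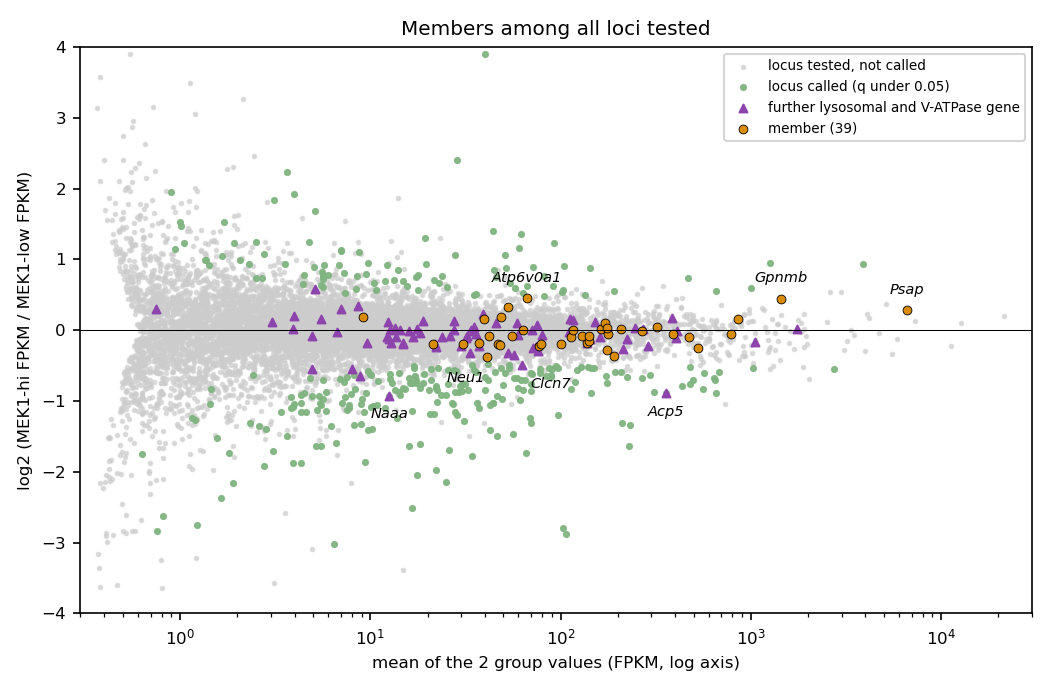
Log2 ratio of the MEK1-hi to the MEK1-low group value against the mean of both values in FPKM (log axis) for loci tested. The 39 members (orange) lie in the band of loci not called, while Acp5 and Naaa, among further lysosomal and V-ATPase genes (purple triangles), lie with the called loci (green); 8 loci fall outside the axes and 42 loci listed at 0 in a group are not drawn.

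The remaining V-ATPase subunits and assembly factors had 12 genes tested, of which 0 were called and 0 had an unadjusted p under 0.05 in either direction. Over all loci tested, 2.44% were called and 8.66% had such a p, 3.53% higher and 5.12% lower. The highest after Tcirg1 was Atp6v0e, a small V0 subunit, at 266 FPKM with MEK1-hi and 311 FPKM with MEK1-low exosomes (Cuffdiff p = 0.125 in the authors' deposited table). The kidney and epithelial isoforms Atp6v0a4, Atp6v1b1, Atp6v1c2 and Atp6v1g3 had values under 0.2 FPKM throughout and had no test. Of 19 genes of mannose 6-phosphate tagging and sorting, which deliver hydrolases to the lysosome, 0 were called, with 1 higher and 1 lower at an unadjusted p under 0.05. Ap1b1, of the AP-1 clathrin adaptor, stood at 34.4 FPKM with MEK1-hi and 24.4 FPKM with MEK1-low exosomes (Cuffdiff p = 0.00210 and q = 0.0734 in the authors' deposited table). Gga2, another adaptor, stood at 29.8 FPKM with MEK1-hi and 41.4 FPKM with MEK1-low exosomes (Cuffdiff p = 0.0212 and q = 0.351 in the authors' deposited table). The receptors of this list with the highest levels were Lrp1, an endocytic receptor, at 362 FPKM with MEK1-hi and 285 FPKM with MEK1-low exosomes, and M6pr, a mannose 6-phosphate receptor, at 206 FPKM with MEK1-hi and 239 FPKM with MEK1-low exosomes. Of 25 tested genes of lysosomal mTORC1 and MiT signalling, 0 were called and 0 had an unadjusted p under 0.05. The highest were Ywhae, a phosphoprotein-binding adaptor, at 266 FPKM with MEK1-hi and 246 FPKM with MEK1-low exosomes, and Lamtor4, of the Ragulator complex, at 156 FPKM with MEK1-hi and 167 FPKM with MEK1-low exosomes. The median log2 ratios of these 3 lists were -0.02, 0.03 and -0.06.

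Related compartments held no called loci either, beside 2.44% of all loci tested. An unadjusted p under 0.05 was found at 3.53% of all loci tested with higher and at 5.12% with lower values. Of 12 cathepsin and legumain loci tested, 0 were called, and 1 was higher at an unadjusted p under 0.05. This was Ctsl, in a locus joined with Gm49230, at 3079 FPKM with MEK1-hi and 2119 FPKM with MEK1-low exosomes (Cuffdiff p = 0.0109 and q = 0.235 in the authors' deposited table). The highest levels were those of Ctsd, in a joined locus, at 5791 FPKM with MEK1-hi and 4460 FPKM with MEK1-low exosomes, and of Ctsb, at 4382 FPKM with MEK1-hi and 3732 FPKM with MEK1-low exosomes. Of 39 genes of the autophagy machinery tested, 0 were called, and the unadjusted p was under 0.05 for 0 higher and 5 lower genes. Sqstm1, the autophagy receptor p62, stood at 473 FPKM with MEK1-hi and 645 FPKM with MEK1-low exosomes, a log2 ratio of -0.45 (Cuffdiff p = 0.00380 and q = 0.113 in the authors' deposited table). The other 4 were Optn, a further receptor, at 3.20 FPKM with MEK1-hi and 5.22 FPKM with MEK1-low exosomes, Rb1cc1 at 6.61 FPKM with MEK1-hi and 9.76 FPKM with MEK1-low exosomes, and the ATG8 family genes Map1lc3a, at 11.3 FPKM with MEK1-hi and 16.04 FPKM with MEK1-low exosomes, and Gabarapl1, at 70.002 FPKM with MEK1-hi and 93.1 FPKM with MEK1-low exosomes. Gabarap, also of this family, stood at 526 FPKM with MEK1-hi and 562 FPKM with MEK1-low exosomes. Of 36 ESCRT and Rab genes tested, 0 were called, with 1 higher and 2 lower at an unadjusted p under 0.05. The higher one was Rab27a, in a joined locus, at 1.02 FPKM with MEK1-hi and 0.553 FPKM with MEK1-low exosomes. The lower ones were Rab9, at 14.7 FPKM with MEK1-hi and 19.6 FPKM with MEK1-low exosomes, and Rab20, at 32.2 FPKM with MEK1-hi and 42.1 FPKM with MEK1-low exosomes. Rab11a, in a joined locus, and Rab7 had the highest levels, with log2 ratios of 0.10 and -0.05. The medians of these 3 lists were -0.07, -0.10 and -0.03, beside -0.08 for the 39 members, and the lists were not tested against each other.

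**Figure D4:**
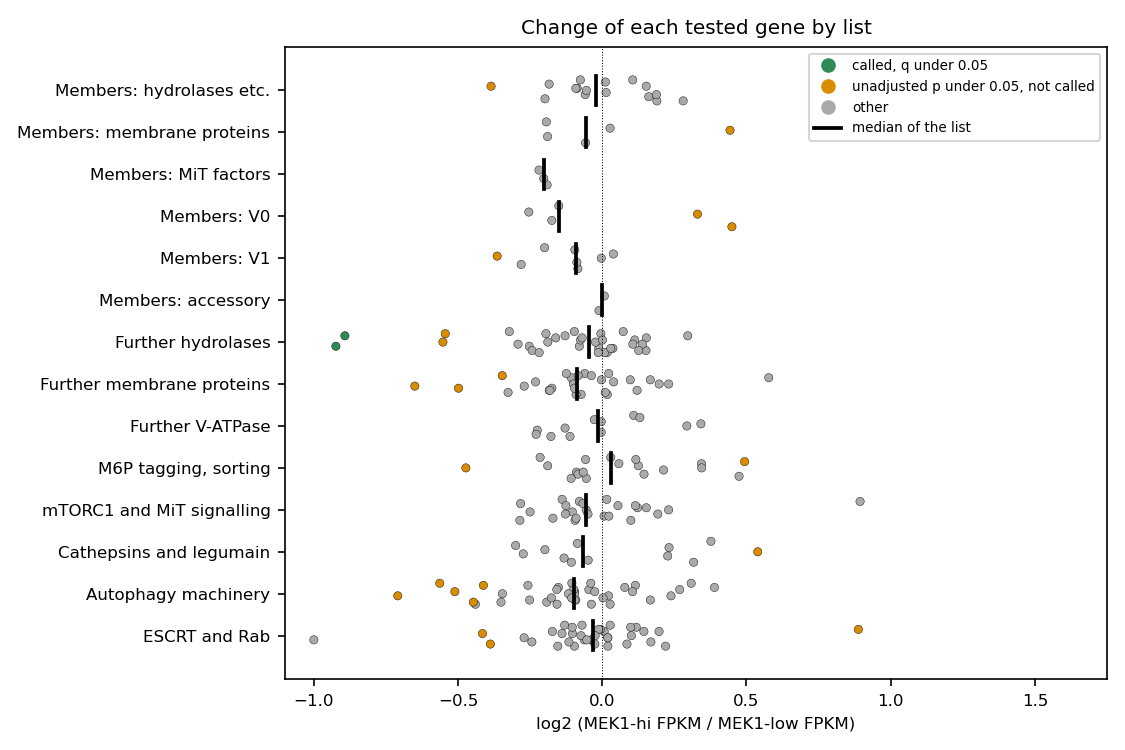
Log2 ratio of the MEK1-hi to the MEK1-low group value of each tested gene (points, 1 value per gene) for the member classes, the further lysosomal lists and the compared lists; vertical bars mark list medians. The 2 green points are Acp5 and Naaa, the called genes; list medians lie between -0.20 for the MiT factors and 0.03 for tagging and sorting.

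Markers of the labelled cell type, macrophages, were abundant, and 16 of 17 were tested. Their summed level was 24014 FPKM with MEK1-hi and 22689 FPKM with MEK1-low exosomes, and Cd14 was the marker called, at 136 FPKM with MEK1-hi and 213 FPKM with MEK1-low exosomes (Cuffdiff q = 0.00349 in the authors' deposited table). Markers of other cells were low: 12 fibroblast or fibrosarcoma markers summed to 12.6 FPKM with MEK1-hi and 12.7 FPKM with MEK1-low exosomes, and 12 T cell markers to 5.71 FPKM with MEK1-hi and 7.66 FPKM with MEK1-low exosomes. The sums were 2.74 FPKM with MEK1-hi and 3.08 FPKM with MEK1-low exosomes for 6 B cell markers, 3.31 FPKM with MEK1-hi and 4.83 FPKM with MEK1-low exosomes for 7 endothelial markers, and 4.83 FPKM with MEK1-hi and 4.75 FPKM with MEK1-low exosomes for 7 dendritic cell markers. The 12 neutrophil markers summed to 238 FPKM with MEK1-hi and 253 FPKM with MEK1-low exosomes, mostly from Mmp8, while S100a9, Ly6g, Mpo, Elane, Ngp and Retnlg were listed at 0 in both groups. None of the markers of these 6 other cell types was called by Cuffdiff. S100a8 and Col6a3 had an unadjusted p under 0.05: S100a8 stood at 22.6 FPKM with MEK1-hi and 35.5 FPKM with MEK1-low exosomes, and Col6a3 at 1.44 FPKM with MEK1-hi and 0.455 FPKM with MEK1-low exosomes. Their part in the values of the members was not tested. In bulk samples, fewer cells of a type and less RNA per cell cannot be told apart.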

How the data were processed

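Per the labels' protocols, libraries of 4 samples (2 per group) were prepared with a strand-specific kit for mRNA and read from both ends over 100 bases. TopHat, Cufflinks, Cuffdiff, FastQC 0.73 and the build mm10 were used, per the submitters' processing notes. The authors deposited 1 table with 1 FPKM value per group, a Cuffdiff test score (its test statistic), a p-value and a q-value per locus; the sources used here do not give how samples were combined or normalised. Depth per sample is unknown. The groups MEK1 exo and GFP exo of the table were matched to the MEK1-hi and MEK1-low labels, the second through the word GFP. P-values measure at most the spread between these samples, which may be technical.

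Fold changes are MEK1-hi over MEK1-low, computed with Python 3.11.15, pandas 2.3.3 and numpy 2.4.6. A gene was called at a deposited q under 0.05. Medians are over loci tested, of log2 ratios without a pseudocount unless the log2(FPKM + 1) scale is named. The 39 members and all gene lists were chosen with earlier results of these data known. Genes named were those called or with an unadjusted p under 0.05, the highest 2 of each list, and every member; cell type markers named beside their lists, Ctsa, Ostm1, Atp6v0a2 and the pump isoforms that were not tested were added after their values were seen. A gene that this rule took is not reported here, though counts and medians include it. Galns, Map1lc3b, Chmp1a and Rab4a were on the lists and are not analysed here. Symbols and positions are from GENCODE M21 on the same build (54824 of 55082 identifiers matched), and promoters from RefSeq. The adjustment and fold changes were tested on simulated data.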

Additional observations from a re-analysis of the deposited data

How the results depend on the processing

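No paired analysis was possible because the table holds 1 value per group, and for the same reason leaving out replicates could not be run. The counts of called members, 0 higher and 0 lower, were the same at a q under 0.1 and with the p adjusted over loci of 1 FPKM or more. They were also 0 at a q under 0.01, with an absolute test statistic of at least 2 and without joined loci. Those last settings only narrow the calls made at a q under 0.05, so they could not have added a member. With no adjustment (p under 0.05), 3 were higher and 2 lower. The median log2 fold change of the members was -0.0740 on the log2(FPKM + 1) scale, which understates changes of low genes. It was -0.0756 with a pseudocount of 0.1, -0.0757 with none, -0.0789 without joined loci, -0.0740 at 5 FPKM or more, -0.0315 with both groups set to the same sum of FPKM, and -0.0362 with the same upper quartile; over all loci tested the median became 0.04 and 0.03 under these 2 scalings. The log2 fold changes of Atp6v1h and Atp6ap1, -0.00 and -0.01 as deposited, became 0.0405 and 0.0323 under the same sum and 0.0356 and 0.0275 under the same upper quartile. The other 37 members kept their direction under both scalings. The unknown depth and the single value per group limit what can be said of any member.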

Other observations

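Markers of osteoclasts, cells in which Atp6v0d2 and Acp5 serve bone resorption, had values on both sides. Of 9 such markers, 8 were tested. Acp5 alone was called, with a lower value, beside 2.44% of all loci tested called in either direction. An unadjusted p under 0.05 was found for 4: Atp6v0d2 and Ocstamp with higher values, Acp5 and Dcstamp with lower ones. Over all loci tested, 8.66% had such a p, 3.53% higher and 5.12% lower. With so few genes, these counts are not read as a result about the list. Dcstamp, a fusion protein of osteoclasts, stood at 11.5 FPKM with MEK1-hi and 17.3 FPKM with MEK1-low exosomes (Cuffdiff p = 0.0150 and q = 0.289 in the authors' deposited table). Ocstamp, a second fusion protein, stood at 2.21 FPKM with MEK1-hi and 1.58 FPKM with MEK1-low exosomes (Cuffdiff p = 0.0446 and q = 0.538 in the authors' deposited table). Ctsk, the collagen-degrading cathepsin, stood at 74.8 FPKM with MEK1-hi and 79.4 FPKM with MEK1-low exosomes, and Nfatc1, the transcription factor that drives osteoclast genes, at 15.5 FPKM with MEK1-hi and 17.5 FPKM with MEK1-low exosomes (p = 0.572 and p = 0.270 in the authors' deposited table). Calcr, the calcitonin receptor of mature osteoclasts, stood under 0.1 FPKM in both groups.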
